A study of Mus musculus with 17 samples.

Results

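The members described here are 10 transcription factor genes of the ventral and tuberal hypothalamus, Nkx2-1, Nkx2-2, Nkx2-4, Six3, Six6, Rax, Vax1, Tbx3, Nr5a1 and Fezf1, in a list of H3K27ac peaks from mouse hypothalamus. H3K27ac, acetylation of lysine 27 on histone H3, marks active promoters and enhancers. For each gene, all peaks overlapping its RefSeq span or the 50 kb on either side were taken, which gave 91 of the 183678 peaks of the list for 10 of 21887 protein-coding genes. The list belongs to 3 bulk CUT&Tag samples of dissected hypothalamus described as biological replicates. In CUT&Tag an antibody brings the Tn5 transposase to marked chromatin, and here the antibody was anti-H3K27ac. The series also holds 7 DNA and 7 RNA sub-libraries of Paired-Tag, which reads histone marks (H3K27ac and H3K27me3) and RNA in single nuclei, and these were not analysed here. All samples are of hypothalamus, with no treatment or genotype in their labels, and the sources used here give no strain, age or sex. The list holds 1 value per peak for the 3 samples together, so there is no value per sample, no spread between animals, no read depth and no test, and every comparison below is a description. In tissue of many cell types, marks in few cells and weak marks in many cells cannot be told apart.

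These factors act in sequence to build the ventral hypothalamus. Sonic hedgehog from the midline induces Nkx2-1, Nkx2-2 and their relatives, homeodomain factors such as Six3 and Vax1 set the anterior and optic identity of the same region, and later factors sort its progenitors into arcuate and ventromedial neurons and into tanycytes, the glia that line the third ventricle. Nkx2-1 also acts in thyroid and lung, Nkx2-2 in oligodendrocyte precursors and pancreatic islets, Six3, Six6, Rax and Vax1 in the eye, Six6 in the pituitary, and Nr5a1 in the adrenal gland and gonads.

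A peak lay across the start itself in 4 of the 7 genes whose start was given. Over all protein-coding genes with a start in the same table the share was 64.3%, and over those with 1 start, as in the 7 members, it was 60.3%. The RefSeq promoter table of build GRCm38.p6, the assembly called mm10, gave 1 start for each of 7 of the 10 genes (Nkx2-1, Nkx2-2, Nkx2-4, Six3, Six6, Vax1 and Fezf1), and Rax, Tbx3 and Nr5a1 could not be assessed. The 250 bases before the start are shown for the 4 genes whose start lay under a peak and for Nkx2-2, whose start lay in a gap between peaks, 5′ to 3′ in the direction of transcription. Capitals mark the bases that lie inside a deposited H3K27ac peak.
Nkx2-4: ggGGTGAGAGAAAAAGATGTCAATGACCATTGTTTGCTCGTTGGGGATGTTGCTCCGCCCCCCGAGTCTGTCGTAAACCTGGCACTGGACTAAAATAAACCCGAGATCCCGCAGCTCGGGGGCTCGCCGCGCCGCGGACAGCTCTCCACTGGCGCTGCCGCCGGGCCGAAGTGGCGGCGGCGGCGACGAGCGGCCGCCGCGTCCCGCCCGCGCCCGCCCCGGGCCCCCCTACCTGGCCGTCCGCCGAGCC
Six3: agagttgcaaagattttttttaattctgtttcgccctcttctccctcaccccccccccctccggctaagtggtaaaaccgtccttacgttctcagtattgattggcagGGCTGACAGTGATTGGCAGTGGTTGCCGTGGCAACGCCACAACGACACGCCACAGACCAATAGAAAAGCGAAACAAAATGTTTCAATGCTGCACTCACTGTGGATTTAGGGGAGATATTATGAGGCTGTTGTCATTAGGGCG
Six6: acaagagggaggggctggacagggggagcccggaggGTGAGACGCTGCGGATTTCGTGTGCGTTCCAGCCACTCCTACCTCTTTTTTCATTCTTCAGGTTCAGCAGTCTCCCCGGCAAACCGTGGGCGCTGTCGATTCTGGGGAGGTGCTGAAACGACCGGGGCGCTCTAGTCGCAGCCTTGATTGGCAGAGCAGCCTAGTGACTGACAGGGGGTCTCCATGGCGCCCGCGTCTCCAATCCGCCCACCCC
Fezf1: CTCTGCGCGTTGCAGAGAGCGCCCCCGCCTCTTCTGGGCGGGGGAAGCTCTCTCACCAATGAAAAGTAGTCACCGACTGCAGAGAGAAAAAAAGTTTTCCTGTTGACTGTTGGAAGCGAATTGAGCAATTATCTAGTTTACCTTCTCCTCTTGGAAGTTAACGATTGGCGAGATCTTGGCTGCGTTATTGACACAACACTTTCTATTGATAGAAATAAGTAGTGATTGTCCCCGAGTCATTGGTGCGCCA
Nkx2-2: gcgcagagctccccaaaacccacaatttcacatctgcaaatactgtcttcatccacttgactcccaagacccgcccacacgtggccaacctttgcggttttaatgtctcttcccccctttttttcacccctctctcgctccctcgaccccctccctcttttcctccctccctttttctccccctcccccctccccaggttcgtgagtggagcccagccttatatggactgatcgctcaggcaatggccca

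The peak took in 248 of these 250 bases at Nkx2-4 (chromosome 2, 147085346 to 147085595, minus strand), 142 at Six3 (chromosome 17, 85620584 to 85620833, plus strand), 214 at Six6 (chromosome 12, 72939632 to 72939881, plus strand) and all 250 at Fezf1 (chromosome 6, 23248265 to 23248514, minus strand). At Nkx2-2 (chromosome 2, 147186403 to 147186652, minus strand), Nkx2-1 and Vax1 none of the 250 bases lay in a peak. The mark at Nkx2-1 and Vax1 began inside the transcribed part, with summits 895 and 1068 bp after the start. With the first 50 transcribed bases added, GC content was highest at Nkx2-4, 68.3%, with 38 CpG dinucleotides, against a median of 56.3% and 13 CpG over 21263 promoters of protein-coding genes. Vax1 had the lowest GC content of the 7 promoters, 47.7%, with 17 CpG.

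Of 7 motifs searched on both strands of these 7 promoters of 300 bases, with the start counted as position 1, 1 was found once. The NKX2 motif CAAGTG was found in 1 of the 7, at Nkx2-2, on the opposite strand at positions -197 to -192, against 13.1% of all 21263 promoters. The homeodomain motif TAATTA, which is its own reverse complement, the GTATCA motif of Six3 and its relatives, the NR5A motif CAAGGTCA, the T-box motif AGGTGTGA, the GLI motif GACCACCCA of the hedgehog pathway and the TATA box TATAAA were found in 0 of the 7. All promoters held them at 4.53%, 4.52%, 1.34%, 1.15%, 0.179% and 12.6%. With 1 match there was no overlap between motifs. A match or its absence describes the letters of the window only.

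Nearly all members had a peak near their start, or near an end of their span, at a low fold. A peak lay within 1 kb of the start, or of either end of the span where the table gave no start (Rax, Tbx3 and Nr5a1), in 9 of the 10 genes, and 68.7% of all protein-coding genes had one. All 10 had a peak in their span, against 74.3% of protein-coding genes, and all 10 had one in the span or 50 kb flanks, against 85.1%. Fold enrichment, a linear ratio over background given by the authors' peak caller, was taken for the highest peak within 1 kb, called the start peak here. It was 8.61 at Rax and 5.27 at Tbx3, each at an end of the span that may not be the start. At members with a given start it was 5.59 at Vax1, 4.70 at Fezf1, and 3.83 at Nkx2-1 and at Six6. Nkx2-4 had 3.11, Nkx2-2 2.77 and Six3 2.07. Nr5a1 had no start peak. The starts used at Nkx2-2, Six3 and Fezf1 fall inside the span, away from its upstream end. Whether transcripts also start upstream of them was not assessed. The order among the lower values depended on how a start was taken: Six3 had 3.86 within 2500 bp, and with either end of the span Nkx2-2 had 4.92 and Fezf1 2.80. The median of the 9 was 3.83, against 8.84 for the 15042 protein-coding genes with a start peak. None of the 9 reached that median, which 50% of protein-coding genes with a start peak reach by definition, and 8 of the 9 lay below the lower quartile of 5.73. The Six3 value exceeded 0.293% of the start folds of all genes and the Rax value 48.2%. This ranking is by fold only. The −log10 q of the same peaks was 137 at Vax1, 87.0 at Rax, 38.3 at Nkx2-1, 36.7 at Nkx2-2 and 28.0 at Tbx3. It was 25.5 at Fezf1, 16.5 at Six3, 14.3 at Six6 and 8.71 at Nkx2-4, against a median of 13.1 over the list. A rank by −log10 q among the start peaks of all genes was not computed.

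**Figure D1:**
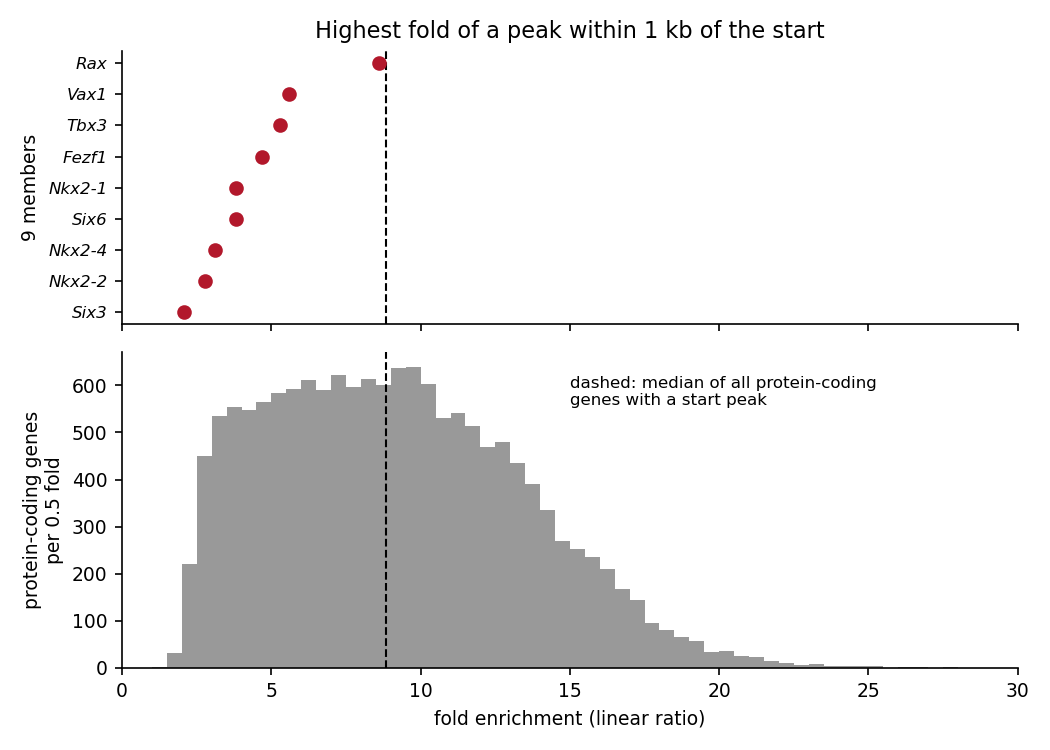
Highest fold enrichment (linear ratio) of a peak within 1 kb of the start, or of either end of the span for Rax and Tbx3, for the 9 members with such a peak (top, 1 point per gene) and for the 15042 protein-coding genes with one (bottom, number of genes per bin). All 9 points lie left of the dashed line, the median of 8.84 over all these genes, and 8 of them lie at or below 5.59.

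The members differed widely in how much acetylated chromatin surrounded them. Nr5a1 had 20 peaks in its span and flanks, Six3 17, Nkx2-2 16, Vax1 9, Rax 8, Nkx2-1 7, Fezf1 6, Six6 4, and Nkx2-4 and Tbx3 2 each. The median of the 10 was 7.5, against 12 for all protein-coding genes (quartiles 4 and 20), and 3 of the 10 genes were above 12. Peaks covered a median of 4.53% of the members' windows, against 7.08% for all protein-coding genes, with 13.0% at Nr5a1 and 0.906% at Tbx3 as the ends of the range. Inside the spans the order was different. Peaks covered a median of 32.9% of the members' spans, against 7.29%, with 78.2% at Nkx2-4, 54.1% at Nkx2-1, 38.1% at Fezf1, 37.1% at Vax1, 36.1% at Nkx2-2, 29.8% at Six3, 18.7% at Rax, 12.8% at Nr5a1, 11.6% at Six6 and 3.64% at Tbx3. Tbx3 was the only one of the 10 below the median of all genes. The members' spans were short, with a median of 5906 bp against 17169 bp, and the part of length in this difference was not tested.

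**Figure D2:**
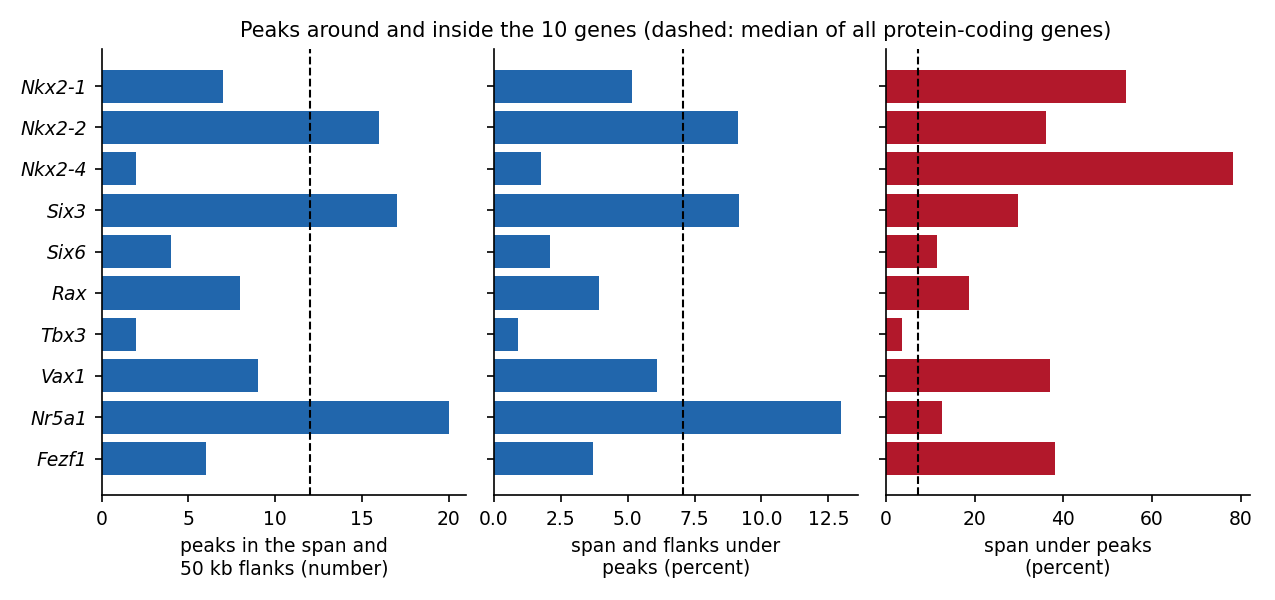
Number of peaks in the span and 50 kb flanks (left), percent of that window under peaks (middle) and percent of the span under peaks (right) for each of the 10 genes, with dashed lines at the medians of all protein-coding genes (12 peaks, 7.08% and 7.29%). In the left and middle panels 3 of 10 bars pass the line, and in the right panel 9 of 10 do.

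Of the 91 peaks, 35 overlapped a span and 56 lay in the flanks, and for 68 the gene was the nearest protein-coding gene to the summit. The 91 peaks were similar to the list at large in size. The median peak near a member had a fold of 3.11 and spanned 593 bp, against 3.18 and 557 bp over the whole list. The share at a high fold was also close, since 23 of them (25.3%) reached the upper quartile of fold of the list, 4.24. The highest fold in a window had a median of 5.42 over the 10 members, against 11.5 over all protein-coding genes with a peak there. Nr5a1 was the only one above 11.5. No peak was shared by 2 members: the windows of Nkx2-2 and Nkx2-4, which lie 91045 bp apart on chromosome 2, overlapped by 8955 bp that held 0 peaks.

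**Figure D3:**
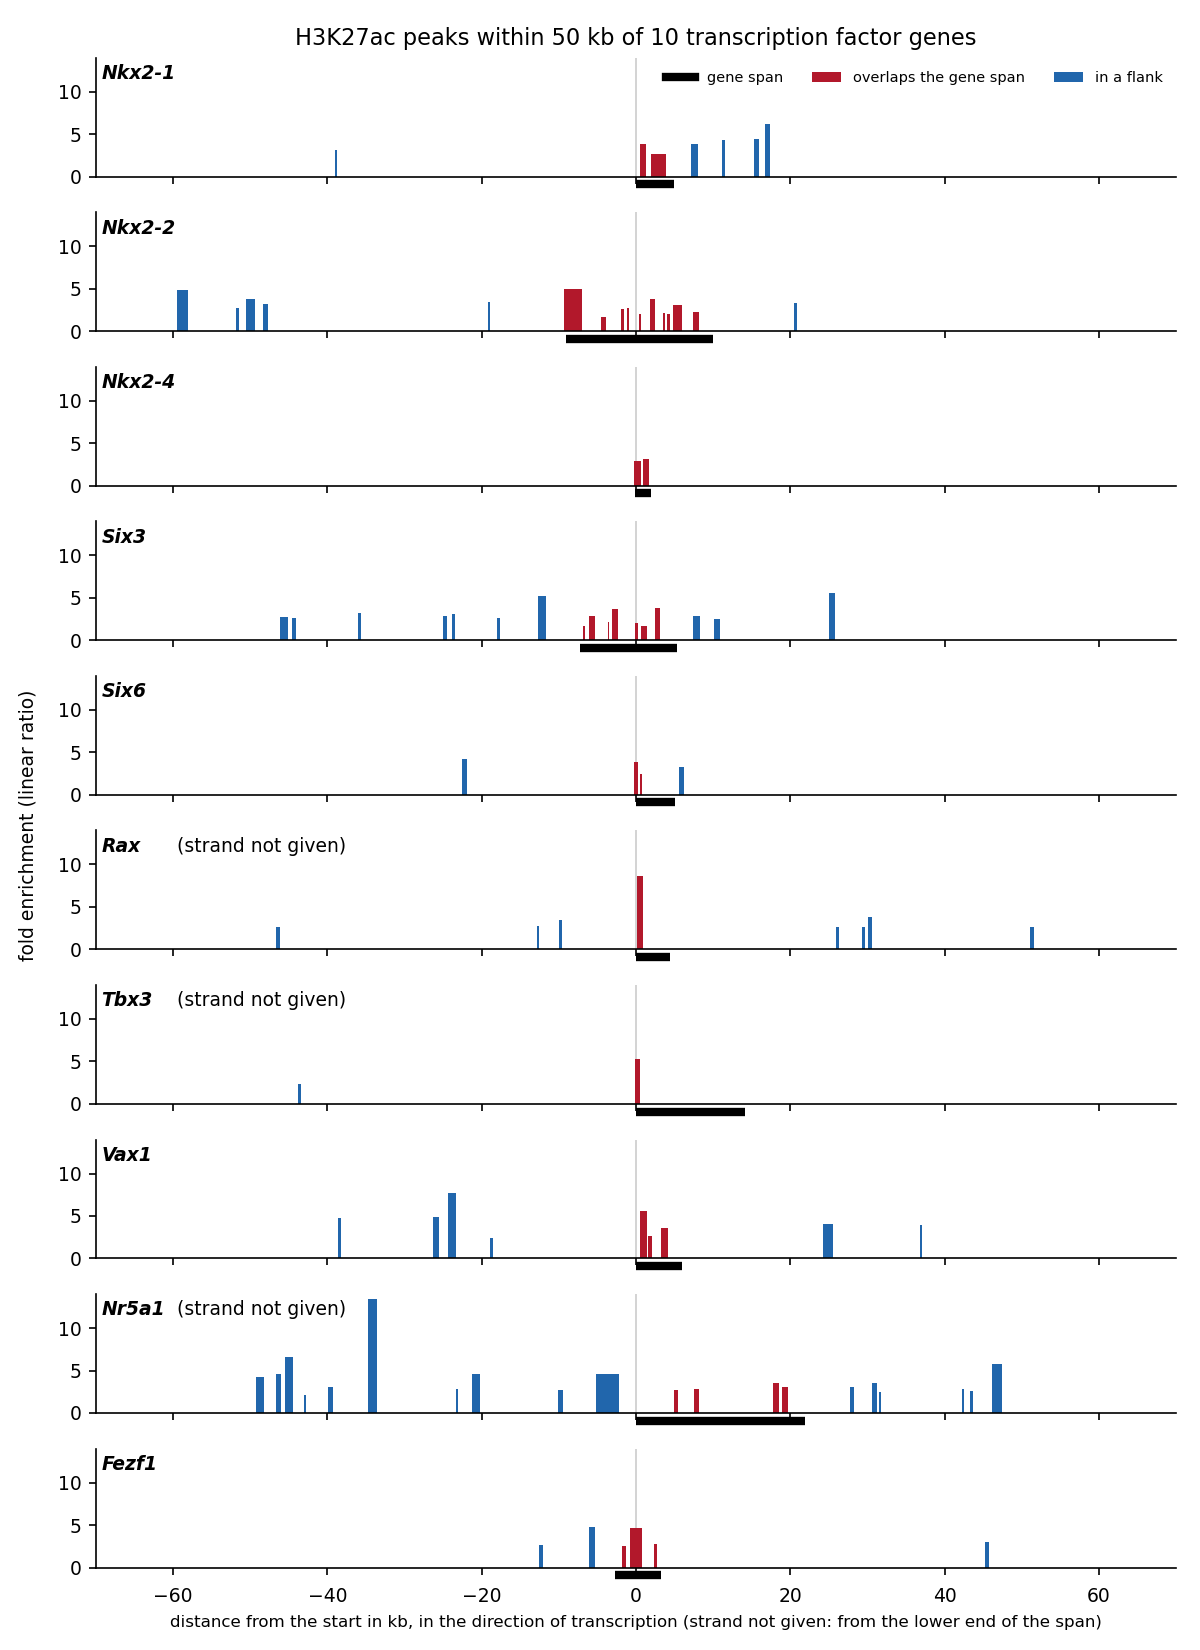
The 91 peaks by distance from the start (kb, in the direction of transcription) and fold enrichment (linear ratio), with bar widths to scale except the narrowest, which are drawn at a minimum width, red for peaks overlapping the gene span and blue for flanks. Rax, Tbx3 and Nr5a1, whose strand was not given, are drawn from the lower-coordinate end. Six3 and Nkx2-2 show strings of low peaks across the span, Nkx2-4 and Tbx3 show 2 peaks each, and the highest bar, at 13.5, lies in a flank of Nr5a1.

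Nkx2-1 is the homeodomain factor on which ventral hypothalamic identity depends. Its span (chromosome 12, 56531935 to 56536908) held 2 peaks, a wide one of 1886 bp with a fold of 2.72 (56533070 to 56534955) and the start peak of 803 bp with 3.83 (56535596 to 56536398). Downstream of the gene, 4 peaks lay over the long noncoding RNA gene Sfta3-ps, with folds of 3.90, 4.26, 4.47 and 6.18 in order of distance. The last, at 56519537 to 56520213 with its summit 16931 bp after the start, was the highest in the window. The start peak also lay within 1 kb of the noncoding gene Gm26973, which begins upstream on the other strand. Beyond the start peak a gap of 39307 bp without a peak was followed by a single peak of fold 3.18, whose nearest protein-coding gene was the paralog Nkx2-9.

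Nkx2-2, a ventral neural tube factor that also acts in oligodendrocyte precursors, had the most peaks inside its span of the 10 genes, 10 in 18950 bp. The start in the promoter table (147186402) falls inside its span (chromosome 2, 147176485 to 147195434) and lay between a peak of fold 2.04 (147185707 to 147186001) and one of 2.77 (147187308 to 147187584), which also took in the start of the noncoding gene 6430503K07Rik. The strongest peak inside, of 2258 bp with a fold of 4.92 (147193429 to 147195686), lay across the upstream end of the span, with its summit at -8533 from that start. The peak with the highest −log10 q of the window, 93.0 at a fold of 3.79 (147183962 to 147184558), lay across the start of the long noncoding RNA gene Nkx2-2os, which is transcribed from the plus strand starting at 147184083. A further cluster of 4 peaks, with folds of 2.70 to 4.88, lay 38621 to 49041 bp beyond the span inside Nkx2-2os.

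Nkx2-4, the closest relative of Nkx2-1 in the family, had no peak outside its span. Both of its peaks lay in or across the edge of its span of 2103 bp (chromosome 2, 147083337 to 147085439), with folds of 3.11 (147083638 to 147084488) and 2.89 (147084646 to 147085593), separated by 157 bp. Neither reached the median −log10 q of the list, 13.1: their values were 8.71 and 7.21. The flanks of 50 kb held 0 peaks on both sides, as in 17.5% of protein-coding genes, and Nkx2-4 was the only one of the 10 members without a flank peak. The peak across the start was the lower of the pair, 2.89, and it also covered the start of the noncoding gene Gm34889 on the other strand, so it cannot be given to Nkx2-4 alone.

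Six3, which specifies the anterior forebrain and eye field, had 17 peaks, 7 of them overlapping its span (chromosome 17, 85613608 to 85626191). The start in the promoter table (85620834) falls inside that span, away from its upstream end. The peak across the start (85620692 to 85621154) had a fold of 2.07, while 4 others in the span were higher, with 3.86 (85623256 to 85623980), 3.73 (85617672 to 85618474), 2.84 (85614781 to 85615459) and 2.13 (85617145 to 85617348). The 3.73 peak lay across the start of Six3os1, a noncoding gene on the minus strand that starts at 85618396, and had the highest −log10 q of the window, 87.5. Inside Six3os1, 4384 bp before the span, stood a peak of 1099 bp with a fold of 5.20 (85608126 to 85609224). The highest fold of the window, 5.56 (85645806 to 85646652), lay 19615 bp beyond the span at a position nearer to Six2 than to Six3. The narrowest of the 91 peaks, 147 bp with a fold of 1.64, also lay in the span.

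Six6, the close relative of Six3 needed in the hypothalamus, pituitary and retina, had 4 peaks. The start peak (chromosome 12, 72939668 to 72940125) had a fold of 3.83 with its summit 13 bp after the start, and a second, of 2.46, lay 684 bp after it. A peak of 3.32 lay 494 bp beyond the downstream end. The highest, of 4.26 (72917357 to 72918036), lay across the start (72917765) of the minus-strand gene 4930447C04Rik, the nearest protein-coding gene to it. Six3 and Six6 had 7 and 2 peaks in spans of 12584 and 5018 bp.

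Rax, the eye-field homeodomain factor that marks tanycytes in the adult hypothalamus, had the span peak of highest fold among the 10 genes. That peak (65934736 to 65935566) had a fold of 8.61 and a −log10 q of 87.0, exceeding 94.8% and 91.1% of the peaks of the list. By −log10 q, span peaks at Vax1 (137), Nkx2-2 (93.0) and Six3 (87.5) were higher. It lay at the lower-coordinate end of the span (chromosome 18, 65934639 to 65939089), and since the strand was not given here it may mark the start or the 3' end. The other 7 peaks had folds of 2.62 to 3.77, and 5 of these were nearer to Grp, Cplx4 or Lman1 than to Rax.

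Vax1, which patterns the optic stalk and chiasm and acts in gonadotropin-releasing hormone neurons, had 9 peaks around its span (chromosome 19, 59164480 to 59170397). Inside the span the folds were 5.59 (59168998 to 59169901), 2.65 (59168384 to 59168794) and 3.53 (59166282 to 59167161), going away from the start. The highest fold, 7.66 (59193721 to 59194773, 1053 bp), stood upstream of the gene with its summit 23763 bp before the start and no end of another annotated gene within 1 kb. Beside it lay a peak of 4.86 (59195995 to 59196763) whose nearest protein-coding gene was Kcnk18.

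Tbx3, a T-box factor of tuberal progenitors and arcuate neurons, had 2 peaks. The stronger, with a fold of 5.27 and a −log10 q of 28.0 (chromosome 5, 119670373 to 119671049), lay at the lower-coordinate end of the span (119670534 to 119684724) and within 1 kb of the start of the minus-strand noncoding gene Tbx3os1 (119671508). The other, of 2.31, lay 43484 bp away. No peak lay in the remaining part of the span or in the 50 kb on the higher-coordinate side.

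The ventromedial nucleus factors Nr5a1 and Fezf1 differed in where the mark stood. Nr5a1, the steroidogenic factor 1 gene on which that nucleus and the steroid-producing organs depend, had no peak within 1 kb of an end of its span (chromosome 2, 38692656 to 38714542). Its 4 span peaks had folds of 2.70, 2.80, 3.49 and 3.02 in order of position. Just outside, 2148 bp from the lower-coordinate end, lay the widest of the 91 peaks, 2974 bp with a fold of 4.56 (38687535 to 38690508), which also took in an end of the pseudogene Adgrd2-ps. The highest fold of the 91, 13.5 (38657906 to 38659074, −log10 q 182), lay 33582 bp from the span and was closer to Psmb7, a proteasome subunit gene. Of the 20 peaks of this window 12 were nearer to Psmb7 or to the nuclear receptor gene Nr6a1, and 8 to Nr5a1. Fezf1, a zinc finger factor needed for the ventromedial nucleus, had a peak of 1539 bp across its start with a fold of 4.70 (chromosome 6, 23247500 to 23249038). Weaker ones of 2.80 and 2.54 lay in the span. Another, of 4.77 (23253588 to 23254328), lay 2652 bp beyond the span, with its summit at -5790 from the start. That start (23248264) falls inside the span (23245044 to 23250936), away from its upstream end.

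Most peaks inside Nkx2-2 and Six3 had a −log10 q above the 95th percentile of the list's peaks of like fold, taken in bins of 0.25. This held for 7 of 10 span peaks at Nkx2-2, 5 of 7 at Six3 and 2 of 3 at Vax1, and for 1 flank peak, at Six3. The excess differed: the highest at Nkx2-2 was 93.0 against a percentile of 52.7 and that at Six3 was 87.5 against 44.1, while the pair at Vax1 had 50.0 against 44.1 and 25.3 against 20.1. The Vax1 peak of fold 5.59 and −log10 q 137 was below its percentile of 148. The 35 span peaks of the 10 members had a median fold of 2.80 and a median −log10 q of 18.1, against 3.16 and 13.4 for the 129232 peaks in spans of all protein-coding genes. The 56 flank peaks had a median fold of 3.29 and a median −log10 q of 11.5. The pair of values can be set against a series within the list: in 54640 peaks (29.7%) the fold was a whole multiple of 0.0722, within 2e-05, with 1 shared −log10 p per multiple, and 99.3% of the other peaks had a higher −log10 p than this series at their fold. The ratio of a peak's −log10 p to that of the series had a median of 1.27 over the list and a 95th percentile of 3.77. Of the 91 peaks 14 passed 3.77, and all 14 were span peaks: 7 of 10 at Nkx2-2, 5 of 7 at Six3 and 2 of 3 at Vax1, there including the peak of fold 5.59. Among peaks at starts of all protein-coding genes 21.5% passed it, and among those in spans 6.18%. At Six3, for example, the peak across the start had a fold above 5.15% of the list but a −log10 q above 59.4% of it. At Nkx2-4, Six6 and Tbx3 all 8 peaks were on the series. The background and read number of each peak were not given, and their part in these values was not tested.

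**Figure D4:**
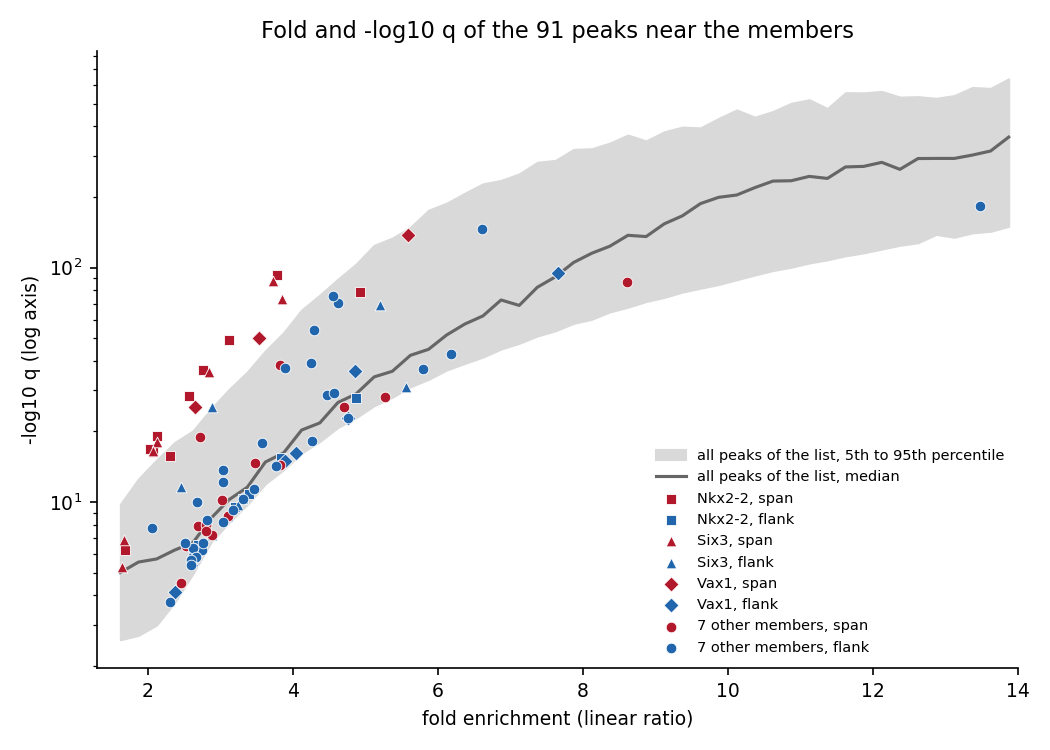
Fold enrichment (linear ratio) against −log10 q (log axis) for the 91 peaks, red for peaks overlapping a span and blue for flanks, with squares for Nkx2-2, triangles for Six3, diamonds for Vax1 and circles for the 7 other members. The grey band spans the 5th to 95th percentile of all peaks in bins of fold, and the line is their median. Red squares and triangles, the span peaks of Nkx2-2 and Six3, lie farthest above the band, while 2 red diamonds of Vax1 lie just above its edge and the third just inside it.

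The nearest relatives of these factors, most of which act in other organs, were counted in the same way. The share with a start peak over all protein-coding genes was 68.7%. Start peaks were found at 9 of the 10 members, against 4 of 13 paralogs (30.8%): Nkx2-9 with a fold of 6.01, Six4 with 5.61, the cortical factor Fezf2 with 4.51 and Six5 with 2.74. Nkx2-3, Nkx2-5, a heart factor, Nkx2-6, Six2, Tbx2, Tbx4, Tbx5, a heart and forelimb factor, Vax2 and Nr5a2, a liver factor, had none. The windows of the paralogs held 1 to 25 peaks. Where they had a start peak, the median fold was 3.83 for the members, against 5.06 for the paralogs, and both were below the 8.84 of all genes. Of genes that pattern the same region with the members, 13 of 16 (81.3%) had a start peak, led by the hedgehog effectors Gli3 with 7.46 and Gli2 with 6.08 and the tanycyte and eye factor Lhx2 with 6.21. The hedgehog ligand gene Shh had 2.99, at an end of its span, and its receptor gene Ptch1 had 4.02. This pair was named after their values were seen. Bsx, Hesx1 and the floor plate factor Foxa2 had none.

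Genes of the cell types and organs in which the members act were counted too, beside the share of 68.7% over all protein-coding genes. Start peaks were found in 10 of 11 ventromedial neuron genes, with Cnr1, the cannabinoid receptor gene, at 7.31 and Gpr149 without one, in 8 of 10 arcuate neuron genes, in all 10 tanycyte genes, with Dio2 at 10.1, and in 9 of 10 oligodendrocyte lineage genes, with the myelin gene Mog at 9.03. The feeding peptide gene Agrp, with no start in the table, had 9.70 at an end of its span. Pomc had no peak at the start in the table but one of 14.8 at an end of its span, so the rules for these 2 genes differed. Of the lists of other organs where members act, 2 of 12 anterior pituitary genes, 4 of 10 eye and retina genes, 5 of 10 thyroid and lung genes, 1 of 8 islet genes and 4 of 8 adrenal and gonad genes had one. The hormone genes Gh, Cga and Fshb, the photoreceptor factor gene Crx and the insulin gene Ins1 were among those without. Atoh7 had 14.1, while Tshr and Mafa had 12.4 and 11.7 at an end of their spans. Whether those peaks, or the peaks given above for Agrp and Pomc, belong to neighbouring genes was not checked. Among genes with a start peak, the median fold was 5.18 for ventromedial, 4.31 for arcuate, 5.96 for tanycyte and 4.30 for oligodendrocyte lineage genes. It was 3.11 for pituitary, 3.99 for eye, 7.70 for thyroid and lung, and 5.48 for adrenal and gonad genes. The members had 3.83. All of these lists were described by counts and medians only.

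**Figure D5:**
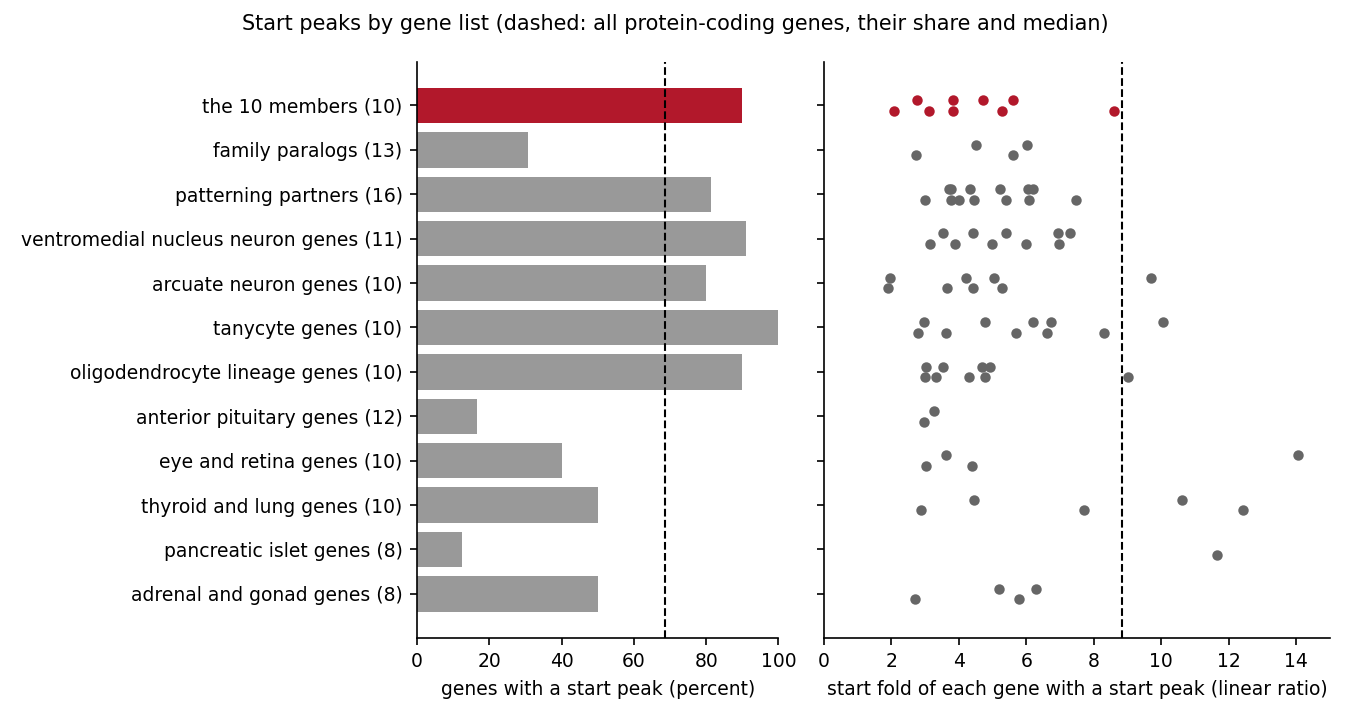
Percent of genes with a start peak (left) and fold enrichment (linear ratio) of each start peak (right, 1 point per gene) for the 10 members in red and 11 comparison lists in grey, with the number of genes in brackets and dashed lines at 68.7% and 8.84, the values of all protein-coding genes. The members, the patterning partners and the lists of hypothalamic cell types have bars of 80% or more, and the paralogs and other organs have bars of 50% or less. With either end of the span used for all genes these limits were not kept, with 8 of 11 ventromedial and 6 of 10 eye and retina genes. The first lists then still lay above the 69.2% of all protein-coding genes, and the paralogs and other organs below it. The lists were chosen with earlier results of these data known.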

How the data were processed

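H3K27ac CUT&Tag was done on 3 bulk hypothalamus samples, per the labels, and samples were grouped by their titles. The deposited peak list gives, for the 3 samples together, each peak's coordinates, summit, score, fold (a linear ratio) and the −log10 of its p and q. The score deposited by the authors was not used for results. The −log10 p and q values deposited by the authors ranked peaks. Build mm10 and, with no role or order, MACS2, BWA 0.7.17, cutadapt 4.5, STAR 2.7.10a and UMI-tools 1.1.4 are named per the submitters' processing notes. The sources used here give no caller settings and no rule for joining replicates. Depth is unknown.

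The fold ratio deposited by the authors was used only within this list. Members and comparison lists were chosen with earlier results of these data known. Genes, spans and starts came from RefSeq tables of GRCm38.p6, in which 79.9% of protein-coding genes have a start; for the others either end of the span was used. A peak counted when it overlapped a window by any base, and coordinates are 1-based. Nothing was tested, since the list holds no replicates. Genes named from the 11 lists are among the 3 of highest start fold, the first 3 by alphabet without a start peak, or were chosen after their values were seen. The search for overlaps was tested on simulated data. Python 3.11.15, numpy 2.4.6 and pandas 2.3.3 were used. 1 gene of the comparison lists is not reported here and was left out of their counts.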

Additional observations from a re-analysis of the deposited data

How the results depend on the processing

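The count of members with a start peak, 9 of 10, stayed between 8 and 10 with start windows of 500 and 2500 bp, with either end of the span, with summits inside the window and with peaks above the median −log10 q. Over all protein-coding genes the share at these settings was between 64.6% and 71.7%. With only peaks that reached the list's upper quartile of fold the count of members was 4, against 59.4% of protein-coding genes. Under the same limit 5 members had a span peak, against 65.8% of protein-coding genes. Peaks near the members numbered 23 (25.3%) under it and 50 (54.9%) above the median −log10 q, against 91. With either end of the span in place of the start, 1 member (Rax) in place of 0 reached the median start fold of all genes, then 8.60. Single start folds moved more than these counts. Six3 had 3.86 within 2500 bp in place of 2.07, and with either end Nkx2-2 had 4.92 in place of 2.77 and Fezf1 2.80 in place of 4.70, which changed the order of the members. Only within 2500 bp did Nr5a1 have a peak near an end of its span. The highest, of 4.56, lay near the lower-coordinate end, which may not be the start. Flanks of 25 and 100 kb gave 69 and 124 peaks. Using either end, added after the data were seen, moved no count of the comparison lists by over 1.5 times. Counts rose from 4 to 6 for eye and retina, 8 to 10 for arcuate, 2 to 3 for pituitary and 13 to 14 for patterning genes. The ventromedial count fell from 10 to 8. Over all protein-coding genes the share was 69.2% with either end, in place of 68.7%. No paired analysis was possible because the list gives 1 value per peak for the 3 samples together, and for the same reason no replicate could be left out. Depth limits cannot be given without read counts.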

Other observations

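The CCAAT box, letters CCAAT on either strand, was searched after the promoter sequences had been read. It was found in 4 of the 7 promoters of 300 bases that the table gave for the members, at Six3, Six6, Vax1 and Fezf1, against 38.2% of all 21263 promoters of protein-coding genes. Each of the 4 held at least 2 copies, with 3 at Six3 and 4 at Fezf1, against 12.8% of all promoters with 2 or more. The copies nearest the start lay at positions -16 to -12 at Six6 and -12 to -8 at Fezf1, with the start counted as position 1. The promoters of Nkx2-1, Nkx2-2 and Nkx2-4 held none. The CCAAT box is bound by the NF-Y complex in many promoters, and whether it is bound here was not tested.

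At Nkx2-2 and Six3 the peak of highest −log10 q in the window lay across the start of an overlapping noncoding gene on the other strand, Nkx2-2os and Six3os1. It did not lie across the start that the promoter table gives for the factor's own gene. Both of those starts fall inside the RefSeq span, and whether transcripts also start upstream of them was not assessed. The −log10 q values of these peaks were 93.0 and 87.5, against 36.7 and 16.5 for the start peak of highest fold at Nkx2-2 and Six3. The list carries no strand, so the mark cannot be divided between the genes of either pair.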
